A study of Mus musculus with 6 samples.

Results

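The genes described here encode 58 proteins that package, open or mark chromatin, out of 23107 genes in the deposited count table of myeloid cells sorted from mouse gliomas. They were taken by symbol from a list chosen with earlier results of these data known, so counts over it are descriptions. All 58 were found in the table and passed the filter on low counts. By role the list holds 11 subunits of SWI/SNF complexes, 8 CHD remodellers, 4 other remodelling ATPases, 11 bromodomain proteins, 2 acetyltransferases, 10 deacetylases and corepressors, 2 DNA methyltransferases, 6 Polycomb genes, 3 SET domain methyltransferases and Arid5a. Coordinates are those of mm10, counted from 1.

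The study compared 3 libraries from tumours with wild-type IDH1 (wtIDH1) and 3 from tumours with mutant IDH1 (mIDH1), all from C57BL/6 mice. In both groups leukocytes were enriched on Percoll from dissociated tumours, and RNA was taken from cells that a flow cytometer sorted as positive for CD11b and for Gr-1. CD11b marks myeloid cells in general, and Gr-1 is shared by Ly6G of neutrophils and Ly6C of many monocytes. The genotype is that of the tumour; the sources used here do not give how the tumours were made, the age of the mice or whether each library is 1 animal. The p-values therefore set the difference between the groups against the spread between libraries, part of which may be technical. The spread between animals may differ from it.

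DNA is wound around histones into nucleosomes, and the proteins in this list change how tightly it is held. Remodellers of the SWI/SNF, CHD, ISWI and INO80 families burn ATP to slide, eject or exchange nucleosomes. Acetyltransferases such as Ep300 and Crebbp add acetyl groups to histone tails, bromodomains bind those groups, and deacetylases in corepressor complexes remove them. DNA methyltransferases, Polycomb complexes and SET domain enzymes add methyl groups to DNA or histones. In macrophages and their precursors these factors are known for their part in opening the enhancers of inflammatory genes and in keeping such genes silent at rest. Mutant IDH1 makes 2-hydroxyglutarate, which inhibits demethylases that need 2-oxoglutarate, an enzyme class that is not in this list.

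In the mIDH1 libraries 13 of the 58 genes fell (22.4%) and 0 rose, by edgeR's quasi-likelihood test with Benjamini-Hochberg adjustment over 12950 genes and a threshold of 0.05. Over all genes tested 5.39% fell and 2.78% rose. The count of rises was 0 also in DESeq2, in limma voom and in the other alternatives, and 0 genes with a positive fold change had an unadjusted p under 0.05. The fallen genes were Ankrd11, Hdac5, Chd7, Chd3, Arid5a, Arid4a, Dnmt3a, Ino80, Brd9, Brd8, Smarca4, Baz1b and Brd2. Of the 45 others, 15 had an unadjusted p under 0.05, but the share of all genes tested under that limit was not counted. The log2 fold change (mIDH1 minus wtIDH1) was negative in 47 genes (81% against 46.6% of all genes tested), and its median was -0.40 against 0.06 over all genes. All 3 mIDH1 libraries lay below all 3 wtIDH1 libraries in 32 genes (55.2%), against 14.9% of all genes, and above them in 2 (3.45%), against 14.0%. With library totals alone in place of TMM scaling, 11 of the genes fell and 45 had a negative fold change, and lower genes made up 55.0% instead of 66.0% of all calls.

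**Figure D1:**
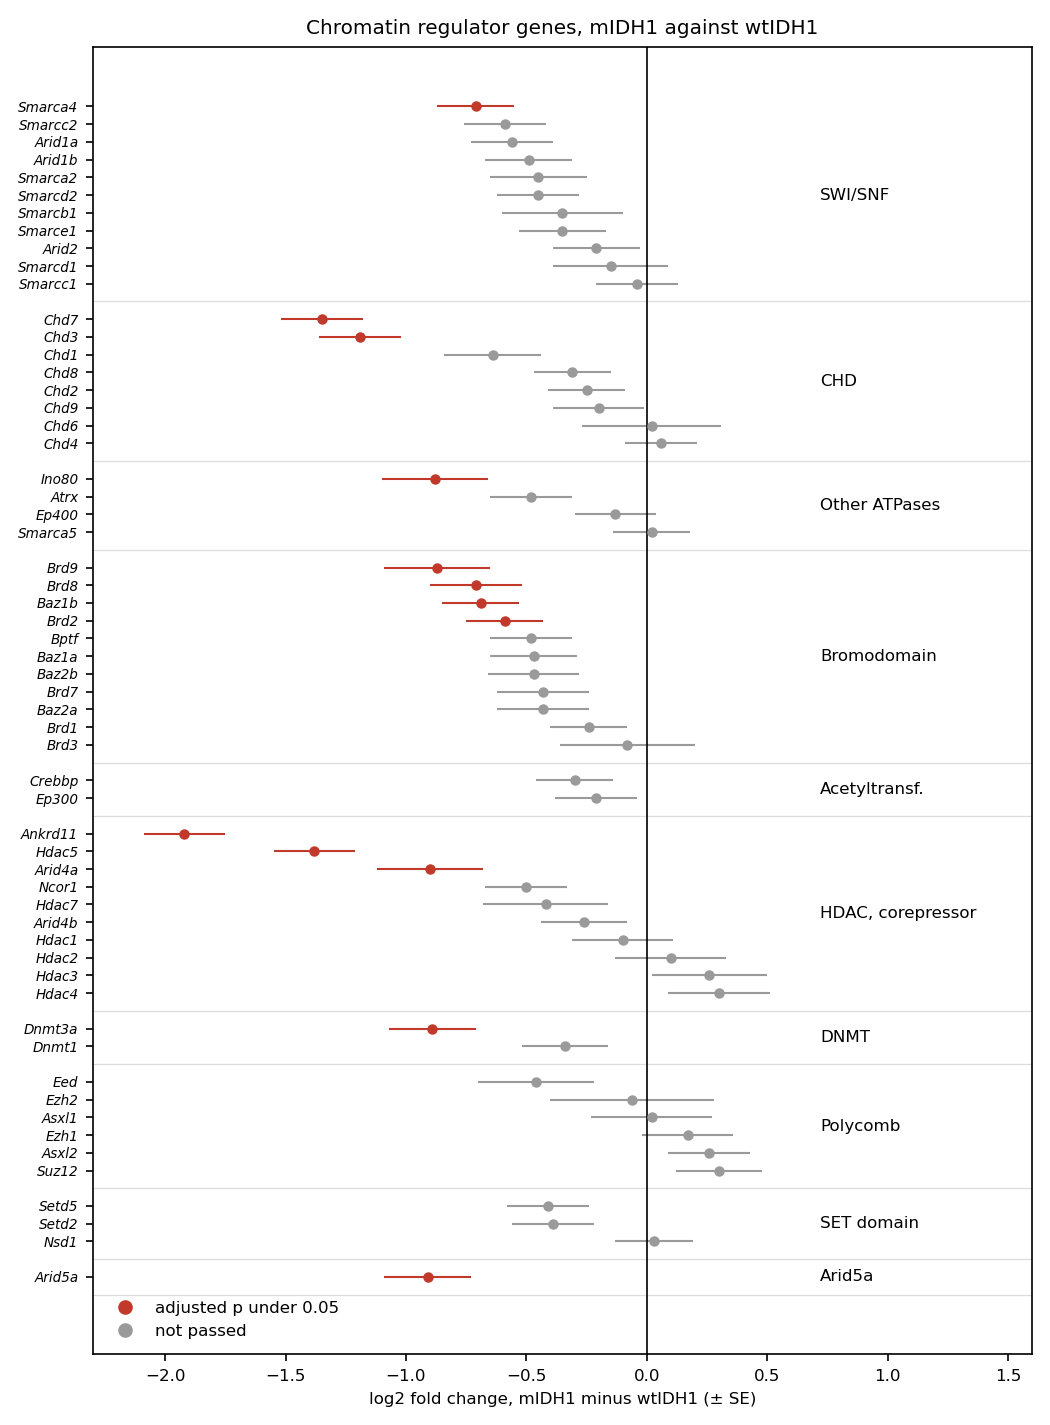
Log2 fold change of each of the 58 genes, mIDH1 minus wtIDH1, with its standard error (x axis), grouped by role and ordered by size (y axis). The 13 genes that passed the threshold are red; the 6 Polycomb genes scatter around 0, with a median of 0.10, and the 11 bromodomain genes all lie to the left of 0, with a median of -0.47.

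These are abundant and evenly measured transcripts. The lowest value of any of them in any library was 13.2 counts-per-million (CPM), and the median over the genes of the coefficient of variation was 10.5% in wtIDH1 and 13.9% in mIDH1, against 23.9% and 28.2% over all genes tested. Abundance itself moved with the share of genes that fell: in the highest quintile of all genes by level, from 82.6 CPM up, 15.4% fell, 30.2% had all mIDH1 libraries below all wtIDH1 libraries and the median log2 fold change was -0.10. Of the 42 chromatin genes in that quintile, 10 fell (23.8%), 27 lay below (64.3%) and the median was -0.44. In the next quintile 3 of 13 fell against 7.76% of all its genes, and 5 lay below against 19.1%. The part of abundance in the result was not tested beyond these values.

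**Figure D2:**
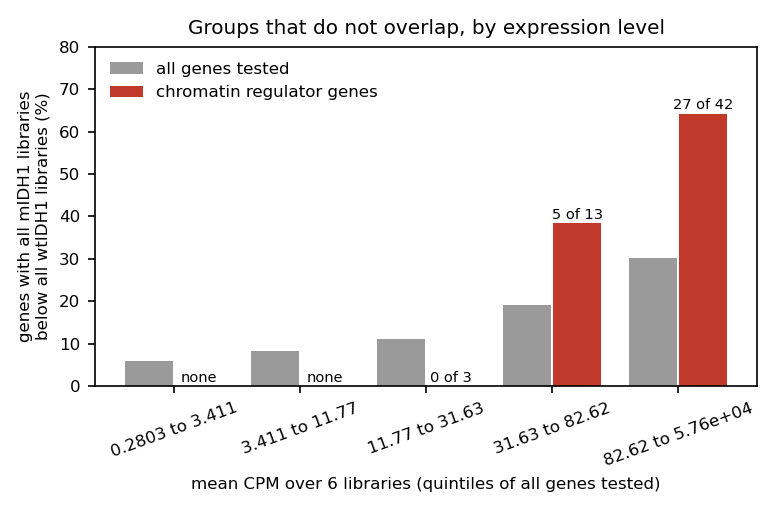
Share of genes in which all mIDH1 libraries lay below all wtIDH1 libraries (y axis, percent), in quintiles of all tested genes by mean CPM over the 6 libraries (x axis). Grey bars are all genes tested and red bars the chromatin genes, with their number above each bar; in the highest quintile the shares are 30.2% and 64.3%.

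The shift was spread over the libraries of each group. The median deviation of the 58 genes from their own means over the 6 libraries (log2 CPM) was 0.12, 0.21 and 0.27 in wtIDH1 libraries 1 to 3 and -0.16, -0.15 and -0.27 in mIDH1 libraries 1 to 3, while that of all genes was between 0.02 and 0.04. Every wtIDH1 library was thus above 0 and every mIDH1 library below it. For the 45 genes that did not pass, the same medians were 0.05 to 0.24 in wtIDH1 and -0.18 to -0.09 in mIDH1.

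**Figure D3:**
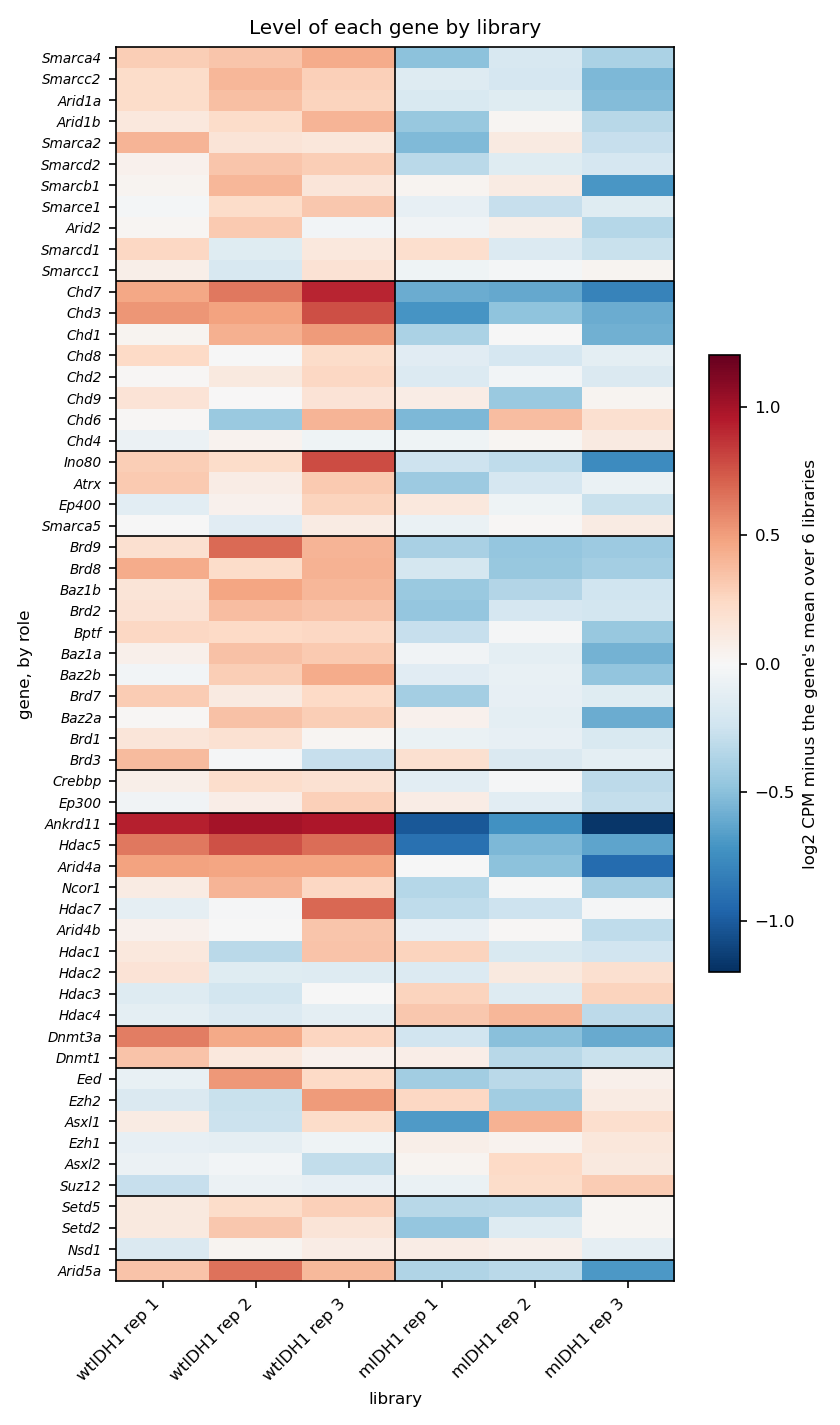
Level of each of the 58 genes in each library, as log2 CPM minus the gene's mean over the 6 libraries (colour scale), with genes by role (y axis) and libraries by group (x axis). Ankrd11, Hdac5, Chd7 and Chd3 carry the deepest colours, and the Polycomb rows show no common split between the groups.

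The promoters of these genes were looked at for what they share beyond function. The comparison used 60 RefSeq (GRCm38.p6) windows, from 250 bases before to 50 after a transcript start, for 46 of the 58 genes. Their median number of CpG dinucleotides was 30.5, against 7 over all 32851 windows of the table, and 86.7% held at least 10, against 43.5%. Those windows belong to 27025 genes against 12950 tested, so they include genes that did not pass the filter on low counts. A comparison with the tested genes alone was not made, here or for the motifs below. The 14 windows of 9 of the 13 genes that fell, with several windows for Dnmt3a, Brd9 and Brd2, all held at least 10, as did 38 of the 46 windows of 37 other genes. Chd7, Chd3, Arid4a and Brd8 had no window in this comparison, for which some of the 58 genes were not looked up. Promoters of Ankrd11 and Hdac5, the genes with the largest falls, are printed with that of Hdac4, the relative of Hdac5 that did not fall, and that of Arid5a, whose protein acts mainly on RNA. They lie at chr8:123042235-123042534 (minus strand), chr11:102230123-102230422 (minus), chr1:92180292-92180591 (minus) and chr1:36307483-36307782 (plus) and run 5′ to 3′ along the transcript. Capitals mark matches on either strand to the GC box GGGCGG, the CCAAT box (named by its letters) and the E-box CACGTG, and adjoining matches run together.
Ankrd11: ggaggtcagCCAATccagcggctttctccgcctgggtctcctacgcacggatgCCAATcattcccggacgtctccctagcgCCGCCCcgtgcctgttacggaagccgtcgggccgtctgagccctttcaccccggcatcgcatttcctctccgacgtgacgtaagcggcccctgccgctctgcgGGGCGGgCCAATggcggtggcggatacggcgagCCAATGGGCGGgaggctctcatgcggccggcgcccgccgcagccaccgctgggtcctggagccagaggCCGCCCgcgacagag
Hdac5: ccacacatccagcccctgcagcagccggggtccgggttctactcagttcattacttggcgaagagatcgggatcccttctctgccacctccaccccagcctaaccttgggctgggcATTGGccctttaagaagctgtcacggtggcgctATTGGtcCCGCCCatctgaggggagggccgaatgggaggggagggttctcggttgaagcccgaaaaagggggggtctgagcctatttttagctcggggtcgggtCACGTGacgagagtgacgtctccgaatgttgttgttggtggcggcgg
Hdac4: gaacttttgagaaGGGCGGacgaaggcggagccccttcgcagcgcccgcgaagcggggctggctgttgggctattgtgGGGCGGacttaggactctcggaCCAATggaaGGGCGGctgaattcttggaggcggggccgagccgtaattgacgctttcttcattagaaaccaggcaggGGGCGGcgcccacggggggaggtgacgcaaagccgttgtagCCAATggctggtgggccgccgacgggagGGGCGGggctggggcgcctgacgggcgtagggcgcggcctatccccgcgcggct
Arid5a: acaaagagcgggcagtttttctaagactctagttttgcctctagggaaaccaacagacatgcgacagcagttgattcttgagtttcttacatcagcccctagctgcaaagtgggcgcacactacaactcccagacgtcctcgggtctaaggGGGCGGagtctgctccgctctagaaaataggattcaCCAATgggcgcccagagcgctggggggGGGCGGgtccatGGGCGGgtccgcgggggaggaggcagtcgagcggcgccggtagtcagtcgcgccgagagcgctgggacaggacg
The Ankrd11 window held 36 CpG with 4 GC boxes and 4 CCAAT boxes. For Hdac5 the window held 18 CpG with 1 GC box, 2 CCAAT boxes and an E-box. That of Hdac4 held 32 CpG with 5 GC boxes and 2 CCAAT boxes, and that of Arid5a 22 CpG with 3 GC boxes and 1 CCAAT box. Whether CpG number bears on the falls was not tested. The Hdac4 window lies inside the gene, which spans 91928779 to 92195702 on chromosome 1. Whether these cells use that start was not tested. Over the 60 windows a GC box was in 75%, against 35.7% of all windows, a CCAAT box in 30% against 37.4%, and the core promoter element TATAAA in 3.33% against 13.6%. CCGGAAG (ETS) was in 15% against 8.86%, CACGTG in 6.67% against 7.15%, and TGANTCA (AP-1) in 5% against 7.81%. A match describes these letters only and is no evidence of binding.

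SWI/SNF complexes are built around 1 of 2 ATPases, Smarca4 (BRG1) or Smarca2 (BRM), on a core that includes Smarcc1, Smarcc2, Smarcb1, Smarce1 and a Smarcd subunit, with Arid1a or Arid1b in the BAF form and Arid2 in the PBAF form. Of these 11 genes 1 fell, Smarca4, and the others did not pass; 11 had a negative fold change (median -0.45) and in 7 the groups did not overlap. With upper-quartile factors or library totals alone Smarcc1 came out at 0.03 and 0.04. Smarca4, on chromosome 9 from 21616106 to 21704230, was at 309.7, 318 and 344 CPM in wtIDH1 libraries 1 to 3 and at 179, 220.3 and 194 CPM in mIDH1 libraries 1 to 3. Every mIDH1 library was below every wtIDH1 library, and the log2 fold change was -0.71 ± 0.16 (SE; adjusted p = 0.0184). Without wtIDH1 library 2 or 3 the adjusted p was 0.0797 or 0.0917, and with a correction for length and GC content 0.0503.

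The other SWI/SNF ATPase, Smarca2, was at 146, 123 and 121 CPM in wtIDH1 and at 76.3, 119 and 90.7 CPM in mIDH1 (log2 fold change -0.45 ± 0.20, adjusted p = 0.191). Its groups did not overlap but came close, mIDH1 library 2 lying just under wtIDH1 libraries 2 and 3. The ratio of Smarca2 to Smarca4 differed by 0.25 on the log2 scale between the groups, whose libraries overlapped (exact two-sided permutation test, p = 0.3). With 3 against 3 that test cannot go below 0.1, so for no pair of relatives can it pass the threshold, and its p decides nothing here or in the pairs that follow. Arid1a, the BAF subunit with the highest level per kb of transcript in this group (46.0 CPM per kb), was at 429, 474 and 444 CPM in wtIDH1 and at 326, 332 and 256 CPM in mIDH1. The groups were well apart, and the log2 fold change was -0.56 ± 0.17 with an adjusted p of 0.0565, which misses the threshold; it passed in 4 of 17 alternatives, among them DESeq2 (0.0168).

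Smarcc1 and Smarcc2 are the scaffold subunits, and neither passed. Smarcc2 was at 186, 211 and 195 CPM in wtIDH1 and at 144, 139 and 109.7 CPM in mIDH1 (log2 fold change -0.59 ± 0.17, adjusted p = 0.0505, and -0.46 with 0.111 after a correction for length and GC content), with no overlap. Smarcc1 was at 108.8, 90.8 and 117 CPM in wtIDH1 and 100.4, 102 and 106 CPM in mIDH1 (-0.04 ± 0.17, adjusted p = 0.934), with the mIDH1 libraries inside the wtIDH1 range. The log2 ratio of Smarcc1 to Smarcc2 within a library was -0.77, -1.21 and -0.73 in wtIDH1 and -0.52, -0.44 and -0.05 in mIDH1, a difference of 0.57 without overlap (exact permutation p = 0.1, the smallest possible). Smarcd1 had the lowest level per kb of the group (11.03 CPM per kb) and a fold change of -0.15 ± 0.24 (adjusted p = 0.786). The rest lay between -0.49 for Arid1b and -0.21 for Arid2, with adjusted p from 0.115 to 0.574.

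CHD proteins pair a helicase-like ATPase with chromodomains. Of the 8 genes, Chd7 and Chd3 fell and the other 6 did not pass. Chd7, which sits at active enhancers and whose loss causes CHARGE syndrome in people, was at 699, 787 and 958 CPM in wtIDH1 libraries 1 to 3 and at 337, 331.5 and 292 CPM in mIDH1 libraries 1 to 3. It had the highest wtIDH1 mean of the 58 genes, 815 ± 131 CPM (SD, n = 3), and was at 320.4 ± 24.4 CPM in mIDH1, with the groups far apart (log2 fold change -1.35 ± 0.17 SE, adjusted p = 0.000759). The gene lies on chromosome 4 from 8690402 to 8868449. Chd8, which shares its domain layout and has been linked to Wnt target genes, was at 204, 172.5 and 201 CPM against 157, 150.4 and 159 CPM (-0.31 ± 0.16, adjusted p = 0.279). The log2 ratio of Chd7 to Chd8 was 1.78, 2.19 and 2.25 in wtIDH1 and 1.10, 1.14 and 0.88 in mIDH1, a difference of -1.03 without overlap (exact permutation p = 0.1).

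Chd3 and Chd4 are alternative ATPases of the NuRD complex, which joins nucleosome sliding to histone deacetylation. Chd3, on chromosome 11 from 69343273 to 69369499, was at 127, 122 and 149 CPM in wtIDH1 and at 53.8, 62.6 and 58.2 CPM in mIDH1, and fell without overlap (log2 fold change -1.19 ± 0.17, adjusted p = 0.00183). Chd4 was at 513, 556 and 520.5 CPM in wtIDH1 and at 522, 549 and 582.5 CPM in mIDH1 (0.06 ± 0.15, adjusted p = 0.88), with the groups mixed. It had the highest level per kb of the CHD genes, 80.7 CPM per kb, against 13.15 for Chd3. The log2 ratio of Chd3 to Chd4 was -2.01, -2.18 and -1.80 in wtIDH1 and -3.27, -3.12 and -3.31 in mIDH1, a difference of -1.24 without overlap (exact permutation p = 0.1), and lay between -1.33 and -1.14 with any library left out. Chd1, a remodeller of actively transcribed genes, had a fold change of -0.64 ± 0.20 (adjusted p = 0.0681), with groups that did not overlap. Chd6, the CHD gene with the lowest level per kb (4.24 CPM per kb), was at 0.02 ± 0.29 (adjusted p = 0.974), Chd2 at -0.25 and Chd9 at -0.20. Of the exon bases of Chd2, 18.4% are shared with the transcript 1810026B05Rik.

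**Figure D4:**
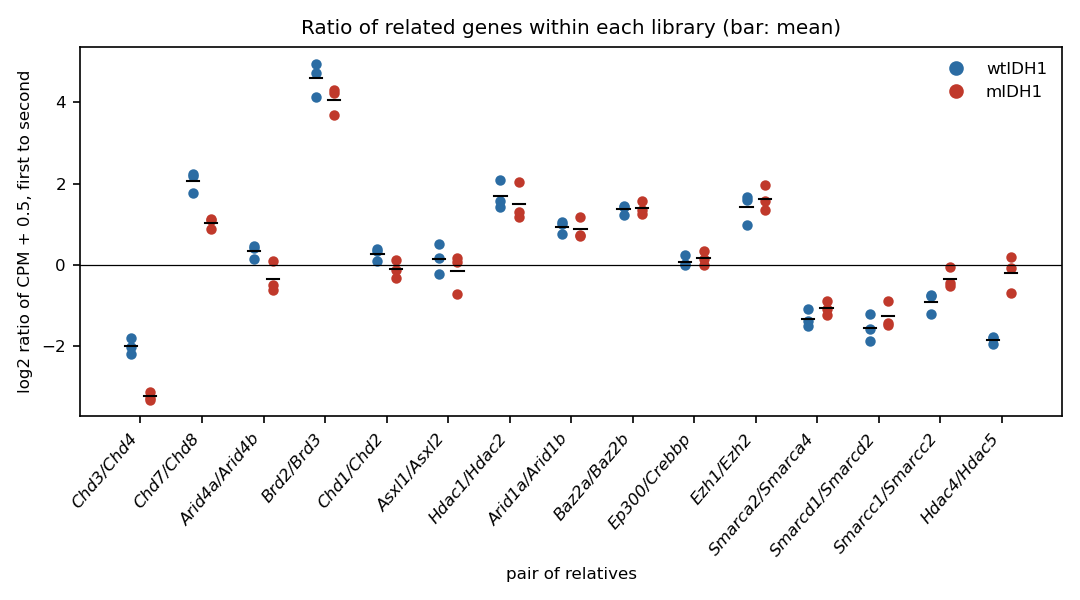
Log2 ratio of 2 related genes within each library (y axis, with 0.5 CPM added to each value) for 15 pairs (x axis), wtIDH1 in blue and mIDH1 in red, with the group mean as a bar. The groups do not overlap for Chd3/Chd4, Chd7/Chd8, Arid4a/Arid4b, Smarcc1/Smarcc2 and Hdac4/Hdac5, and they overlap for the other 10 pairs.

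Among the 4 remaining ATPases 1 fell. Ino80, the motor of the complex that spaces nucleosomes and exchanges histone variants, was at 79.3, 75.5 and 111 CPM in wtIDH1 and at 54.3, 52.3 and 38.3 CPM in mIDH1. The groups did not overlap, and the log2 fold change was -0.88 ± 0.22 (adjusted p = 0.0295; chromosome 2 from 119373042 to 119478685). The call was lost without wtIDH1 library 1 (0.0558), 2 (0.0688) or 3 (0.165) and without mIDH1 library 2 (0.0696) or 3 (0.0583). Atrx, which deposits histone H3.3 with its partner Daxx, was at 222.7, 191 and 223 CPM against 132, 156 and 169.6 CPM, without overlap (-0.48 ± 0.17, adjusted p = 0.106). Smarca5, the ISWI motor that works with several of the bromodomain proteins below, was at 0.02 ± 0.16 (adjusted p = 0.956), and Ep400, with the highest level per kb of the 4 (29.4 CPM per kb), at -0.13 ± 0.17 (adjusted p = 0.739). Ino80 had the lowest, 10.8 CPM per kb.

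Bromodomains bind acetylated lysines on histones. Of the 11 genes listed under this role 4 fell, 11 had a negative fold change with a median of -0.47, and in 9 the groups did not overlap. Whether this group differs from the others was not tested. Brd2, a reader of the BET family that keeps transcription going at acetylated promoters and enhancers, was at 575, 659 and 646 CPM in wtIDH1 libraries 1 to 3 and at 369.9, 443 and 438 CPM in mIDH1 libraries 1 to 3. It was the most abundant bromodomain gene per kb (112 CPM per kb) and fell by 0.59 ± 0.16 on the log2 scale without overlap (adjusted p = 0.0419). Brd3, its relative with the lowest level of the group (4.62 CPM per kb), was at 32.2, 24.6 and 20.4 CPM against 28.3, 22.0 and 22.8 CPM, with the groups mixed (-0.08 ± 0.28, adjusted p = 0.916). The ratio of Brd2 to Brd3 overlapped between the groups (difference -0.53, exact permutation p = 0.3). The call for Brd2 was lost without wtIDH1 library 1 (0.0689), 2 (0.166) or 3 (0.144) and mIDH1 library 1 (0.0993) or 2 (0.0892), with library totals alone (0.0677) or upper-quartile factors (0.0643) and with a correction for length and GC content (0.225). Its exons also share bases with H2-DMa on the other strand, 4.60% of them, and the library kit did not mark strand.

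Brd9, found in the non-canonical BAF form of SWI/SNF, was at 47.2, 66.2 and 54.8 CPM in wtIDH1 and at 31.4, 29.9 and 30.5 CPM in mIDH1. The mIDH1 libraries were close together and below all of wtIDH1 (log2 fold change -0.87 ± 0.22, adjusted p = 0.0298; chromosome 13 from 73937801 to 73960895). Brd8, a subunit of the TIP60 acetyltransferase complex, was at 76.2, 65.2 and 74.7 CPM against 48.4, 41.0 and 42.2 CPM (-0.71 ± 0.19, adjusted p = 0.0409). Baz1b (WSTF), a partner of Smarca5, was at 235, 293.5 and 278 CPM against 154.8, 165 and 179 CPM (-0.69 ± 0.16, adjusted p = 0.0229; chromosome 5 from 135187323 to 135246131). Neither gene's groups overlapped.

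The calls for these 3 genes were each lost in several fits without 1 library. For Brd9 the adjusted p was 0.154 without wtIDH1 library 2, 0.0985 without wtIDH1 library 3 and 0.085 without mIDH1 library 2. For Brd8 it was 0.118, 0.0979 and 0.144 without wtIDH1 libraries 1 to 3, 0.117 without mIDH1 library 2 and 0.07 without mIDH1 library 3, and 0.0617 with library totals alone and 0.0549 with upper-quartile factors. For Baz1b it was 0.123 and 0.0991 without wtIDH1 libraries 2 and 3, and 0.0508 and 0.0768 without mIDH1 libraries 1 and 2. The 6 remaining bromodomain genes did not pass: Bptf, the large subunit of the NURF remodeller, was at -0.48, Baz1a and Baz2b at -0.47, Brd7 and Baz2a at -0.43 and Brd1 at -0.24, with adjusted p between 0.107 and 0.416.

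Both acetyltransferases in the list, the coactivators Ep300 and Crebbp, missed the threshold in edgeR, DESeq2 and limma voom, and 0 had an unadjusted p under 0.05. Ep300 was at 345, 374.5 and 434 CPM in wtIDH1 and at 378, 324.5 and 291 CPM in mIDH1, with 1 mIDH1 library above 2 of the wtIDH1 libraries (log2 fold change -0.21 ± 0.17, adjusted p = 0.52). Crebbp was at 340.4, 377 and 368 CPM against 298, 322 and 261 CPM, without overlap (-0.30 ± 0.16, adjusted p = 0.296). Per kb they stood at 37.4 and 30.3 CPM, and their ratio within a library did not separate the groups (exact permutation p = 0.6).

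Of the 10 deacetylase and corepressor genes 3 fell, among them the 2 with the largest falls of the list. Ankrd11, an ankyrin repeat protein that binds nuclear receptor coactivators and recruits Hdac3, was at 511.5, 537 and 528 CPM in wtIDH1 libraries 1 to 3 and at 133, 162 and 120.0 CPM in mIDH1 libraries 1 to 3. The wtIDH1 libraries were nearly alike (525.6 ± 12.97 CPM, SD, n = 3), and every mIDH1 library was far below them (138 ± 21.6 CPM). The log2 fold change was -1.92 ± 0.17 (adjusted p = 9.32e-05), the largest of the 58, and it lay between -2.05 and -1.83 in the 17 alternatives. Ankrd11 lies on chromosome 8 from 122883321 to 123042284, and 7.83% of its exon bases are shared with the antisense gene Gm45894.

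Hdac5, Hdac4 and Hdac7 are class IIa deacetylases, which shuttle between cytoplasm and nucleus and hold MEF2 target genes silent. Hdac5, on chromosome 11 from 102195747 to 102230172, was at 207, 227 and 212 CPM in wtIDH1 and at 71.5, 91.5 and 86.1 CPM in mIDH1, and fell without overlap (log2 fold change -1.38 ± 0.17, adjusted p = 0.000563). Hdac4 was at 60.6, 58.8 and 60.7 CPM in wtIDH1 and at 82.35, 87.0 and 52.9 CPM in mIDH1, 2 libraries above and 1 below the wtIDH1 range (0.30 ± 0.21, adjusted p = 0.453). Hdac7 was at -0.42 ± 0.26 (adjusted p = 0.399), with overlapping groups. The log2 ratio of Hdac4 to Hdac5 was -1.76, -1.94 and -1.80 in wtIDH1 and 0.20, -0.07 and -0.70 in mIDH1, a difference of 1.64 without overlap (exact permutation p = 0.1) and between 1.45 and 1.90 with any library left out. Hdac4 had the lowest level per kb of this group (8.28 CPM per kb), and 22.4% of its exon bases are shared with Gm26720 on the other strand.

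The class I deacetylases, the catalytic subunits of NuRD, Sin3 and NCoR complexes, did not pass. Hdac1, the most abundant of the group per kb (61.3 CPM per kb), was at 134, 98.5 and 156 CPM in wtIDH1 and at 148.5, 108 and 104.9 CPM in mIDH1, fully mixed (-0.10 ± 0.21, adjusted p = 0.833). Hdac2 was at 0.10 ± 0.23 (adjusted p = 0.856). Hdac3 was at 28.1, 26.8 and 31.2 CPM against 37.5, 28.0 and 37.5 CPM (0.26 ± 0.24, adjusted p = 0.593), with mIDH1 library 2 inside the wtIDH1 range. The scaffold Ncor1, which activates Hdac3, was at 331, 409 and 366 CPM against 244, 307 and 232 CPM without overlap (-0.50 ± 0.17, adjusted p = 0.0991); it passed in 1 alternative, the correction for length and GC content (0.036).

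Arid4a and Arid4b are subunits of the Sin3 corepressor complex. Arid4a, on chromosome 12 from 71015081 to 71099351, was at 122, 121 and 121 CPM in wtIDH1 and at 87.4, 62.1 and 46.2 CPM in mIDH1, with tight wtIDH1 and scattered mIDH1 values but no overlap (log2 fold change -0.90 ± 0.22, adjusted p = 0.0272). Arid4b was at 90.7, 87.2 and 110.2 CPM against 81.6, 88.0 and 70.7 CPM, with overlap (-0.26 ± 0.18, adjusted p = 0.446). Their log2 ratio differed by -0.68 without overlap (exact permutation p = 0.1). The call for Arid4a was lost without wtIDH1 library 1 (0.0727), 2 (0.102) or 3 (0.0966) and without mIDH1 library 2 (0.0946).

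**Figure D5:**
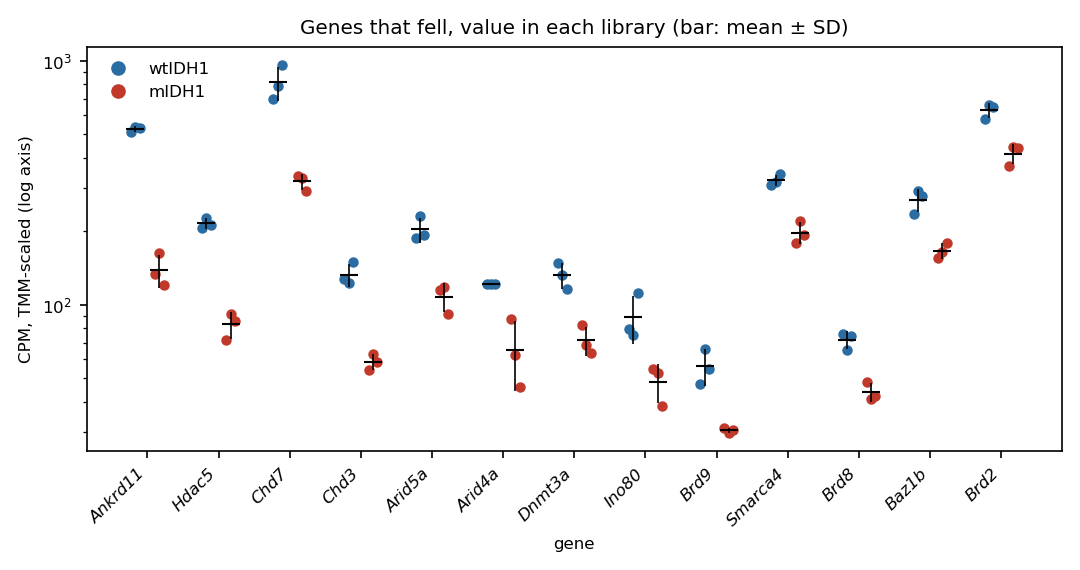
CPM scaled by TMM in each library (y axis, log scale) for the 13 genes that fell (x axis, by size of fold change), wtIDH1 in blue and mIDH1 in red, with mean ± SD as black bars. In every one of the 13 genes the lowest wtIDH1 point lies above the highest mIDH1 point; for Ankrd11 these are 511.5 and 162 CPM.

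Of the 11 genes of DNA methylation, Polycomb and SET domain enzymes 1 fell, Dnmt3a. This enzyme, which sets new DNA methylation and restrains self-renewal in blood stem cells, was at 148, 132 and 116 CPM in wtIDH1 and at 82.6, 68.3 and 63.4 CPM in mIDH1, and fell without overlap (log2 fold change -0.89 ± 0.18, adjusted p = 0.0113; chromosome 12 from 3801559 to 3914443). Dnmt1, which copies methylation to new strands at replication, was at 144, 124 and 118 CPM against 120.4, 90.8 and 95.0 CPM, with overlap (-0.34 ± 0.18, adjusted p = 0.3). The difference between these falls was not tested. For Dnmt3a the adjusted p was 0.0526 without wtIDH1 library 1, 0.06 without wtIDH1 library 2 and 0.0502 without mIDH1 library 2. The table may split its reads with the processed copy Dnmt3a-ps1, as the sources used here do not say how reads with several matches were counted.

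Polycomb genes, whose PRC2 core of Ezh1 or Ezh2 with Eed and Suz12 methylates histone H3 at lysine 27, gave 0 calls of 6 in edgeR, DESeq2 and limma voom and 0 unadjusted p under 0.05, and 4 of the 6 fold changes were positive. Ezh1 was at 48.3, 47.95 and 49.7 CPM in wtIDH1 and at 54.3, 53.1 and 56.9 CPM in mIDH1; Ezh1 and Asxl2 were the 2 genes of the 58 whose mIDH1 libraries all lay above wtIDH1, although the differences were small (0.17 ± 0.19, adjusted p = 0.667, and 0.26 ± 0.17, adjusted p = 0.408). Ezh2, which is induced in dividing cells and had the lowest level per kb of the group (6.45 CPM per kb), was at 15.5, 14.6 and 24.9 CPM against 20.8, 13.2 and 18.8 CPM, fully mixed (-0.06 ± 0.34, adjusted p = 0.945). Genes of proliferating cells gave 0 calls of 14 beside it in edgeR (1 with an unadjusted p under 0.05), with summed levels of 361 to 620 CPM in wtIDH1 and 351 to 553 CPM in mIDH1. Eed, the highest per kb (20.6 CPM per kb), was at -0.46 ± 0.24 (adjusted p = 0.292), Suz12 at 0.30 ± 0.18 (adjusted p = 0.369) and Asxl1, a partner of the deubiquitinase Bap1, at 0.02 ± 0.25 (adjusted p = 0.979).

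Of the SET domain enzymes 0 of 3 passed in edgeR, DESeq2 or limma voom, and 2 had an unadjusted p under 0.05 in edgeR. Setd2, which trimethylates H3 lysine 36 in transcribed genes and was the highest of these per kb (31.15 CPM per kb), was at 279, 320.6 and 285 CPM in wtIDH1 and at 186, 231 and 259.8 CPM in mIDH1, without overlap (-0.39 ± 0.17, adjusted p = 0.208). Setd5, the lowest per kb (20.6 CPM per kb), was at -0.41 ± 0.17 (adjusted p = 0.172), also without overlap. Nsd1, which dimethylates the same lysine, was at 0.03 ± 0.16 (adjusted p = 0.944), with mIDH1 values of 299.8 to 343 CPM inside the wtIDH1 range of 286 to 343.5 CPM.

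Arid5a carries the ARID DNA-binding domain of Arid1a and Arid4a but is known in macrophages for binding and stabilising Il6 messenger RNA. It was at 187, 231 and 193 CPM in wtIDH1 and at 114.9, 118 and 91.2 CPM in mIDH1. The groups did not overlap and it fell by 0.91 ± 0.18 on the log2 scale (adjusted p = 0.00824); without wtIDH1 library 2 the adjusted p was 0.0588. The gene lies on chromosome 1 from 36307733 to 36324037.

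Ankrd11, Hdac5, Chd7 and Chd3, the 4 genes with a fold change beyond 1 on the log2 scale, passed in all 17 alternatives. The other 9 calls were each lost without at least 1 of the wtIDH1 libraries: 8 of the 13 calls were kept without wtIDH1 library 1, 4 without library 2 and 6 without library 3, and 11, 6 and 11 without mIDH1 libraries 1 to 3. Counts over all genes also moved with library 2 of each group and with wtIDH1 library 3, from 1058 calls to 334 without wtIDH1 library 2, 364 without wtIDH1 library 3, 558 without mIDH1 library 2 and 665 without wtIDH1 library 1. Of the genes that did not pass, 5 passed in some alternative: Smarcc2, Arid1a, Chd1, Atrx and Ncor1.

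The wider families were read from 142 further genes of the same complexes and enzyme classes, listed by membership. Of the 134 that were tested, 16 fell (11.9%, against 5.39% of all genes) and 4 rose (2.99%, against 2.78%), and the median log2 fold change was -0.16. The largest fall was that of Dot1l, the H3 lysine 79 methyltransferase, grouped with the SET enzymes although its catalytic domain is of another kind. It was at 149, 178 and 228 CPM in wtIDH1 and at 52.3, 36.45 and 41.2 CPM in mIDH1, far apart (-2.09 ± 0.21, adjusted p = 0.000172), and it passed in all 17 alternatives.

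Partners of the 58 genes were among those that fell. Brpf1, a bromodomain scaffold of the Kat6a acetyltransferase complex, was at 216, 257 and 245 CPM against 131, 123 and 134 CPM without overlap (-0.89 ± 0.16, adjusted p = 0.0058) and passed in all 17 alternatives, and Kat6a itself was at -0.78 ± 0.19 (adjusted p = 0.0263). Daxx, the partner of Atrx, was at 218, 439 and 436 CPM against 172, 107 and 72.7 CPM (-1.63 ± 0.32, adjusted p = 0.00854), with wtIDH1 library 1 much nearer to mIDH1 than the other two; the adjusted p was 0.0582 without wtIDH1 library 2.

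The TIP60 acetyltransferase Kat5, in whose complex Brd8 and Ep400 also sit, fell by 1.09 ± 0.25 (adjusted p = 0.0207), and Zmynd8 by 0.64 ± 0.17 (adjusted p = 0.0363). In the brackets that follow, the log2 fold change stands before the adjusted p of edgeR's test. Among corepressor genes Gps2 (-1.08, 0.0156) and Sirt7 (-0.89, 0.0318) fell, while the histone chaperone Rbbp4, shared by NuRD, Sin3 and PRC2, rose (0.58, 0.0437). Mta3 of NuRD (-0.75, 0.0384) and Jarid2 of PRC2 (-1.08, 0.0497) fell. The H3 lysine 4 enzymes Kmt2d (-0.89, 0.00832) and Setd1a (-0.89, 0.0169) fell, as did Setdb2 (-0.95, 0.049). Smarcad1 (0.82, 0.0465) and Cecr2 (3.23, 0.0429), both listed with the other remodelling ATPases, and the N-terminal acetyltransferase Naa50 (0.69, 0.0442) rose. Cecr2 was at 1.16, 0.114 and 1.21 CPM in wtIDH1, and 3 counts, the limit that a count of 0 allows, came to 0.108 CPM in the second of these libraries. With the correction for length and GC content 0 of the related genes rose and 16 fell: the adjusted p of the 4 rises became 0.1 (Smarcad1), 0.053 (Cecr2), 0.154 (Naa50) and 0.091 (Rbbp4). Of the 20 calls 2 passed in every alternative, 8, 4 and 3 were kept without wtIDH1 libraries 1 to 3, and 12, 7 and 15 without mIDH1 libraries 1 to 3.

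The sorted cells were checked against marker lists, since a bulk library cannot tell fewer cells of a type from less RNA per cell. Itgam, which encodes CD11b, was at 1780 to 2224 CPM in the 6 libraries, and the 7 general myeloid genes, of which Cd14 fell, summed to 10790 to 14390 CPM in wtIDH1 and 9918 to 14190 CPM in mIDH1. The 12 neutrophil genes summed to 334 to 410.0 CPM in wtIDH1 and 404 to 473 CPM in mIDH1. Of the 9 that were tested Cxcr2 (1.15, adjusted p = 0.0132) and Mmp8 (1.85, 0.00286) rose and Csf3r (-0.82, 0.0214) fell. Csf3r, the receptor of G-CSF, was at means of 260.0 and 148 CPM in wtIDH1 and mIDH1. S100a8 and S100a9 were at means of 4.31 and 31.2 CPM in wtIDH1 and 10.3 and 48.8 CPM in mIDH1. The granule genes Camp, Ngp, Ltf, Elane and Mpo were low, with means up to 1.90 CPM (Ltf) in wtIDH1 and 6.45 CPM (Ngp) in mIDH1. The 8 monocyte genes summed to 2279 to 3689 and 3169 to 4729 CPM, with 3 falls (Ly6c2, Plac8, Klf4) and 1 rise (F13a1). Of the 10 macrophage genes 6 rose (Mrc1, C1qb, Ms4a7, Mertk, Gpnmb and Cd68), against 2.78% of all genes tested. The 10 summed to 4648 to 5876 CPM in wtIDH1 and 7797 to 15060 CPM in mIDH1, without overlap. The upper end was mIDH1 library 3, where Apoe was at 6836 CPM, against 2173 and 2690 CPM in mIDH1 libraries 1 and 2. Apoe itself did not pass in edgeR (adjusted p = 0.102). Microglia genes gave 1 rise among 6 (620 to 926 and 645 to 1262 CPM), dendritic cell genes 0 calls of 6 in edgeR (0 with an unadjusted p under 0.05), B cell genes 0 of 4 (1 unadjusted), T and NK cell genes 1 rise among 8, glioma and neural genes 1 rise among 5 and endothelial genes 0 of 3 (1 unadjusted), with Rgs5 at 0. The part of the higher macrophage gene levels in the falls of the chromatin genes was not tested.

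Composition of the transcripts was looked at in the same way. The 58 genes have long transcripts (median 6365 bp against 3120 bp) and ordinary GC content (50.5% against 50%). Over all genes the median log2 fold change went from 0.22 in the quintile with the lowest GC content to -0.15 in the quintile with the highest. After a correction for both, the median of the 58 genes was -0.41 against 0.05 over all genes, and 14 fell; 11 of the 13 calls were kept, Smarca4 (0.0503) and Brd2 (0.225) being lost and Chd1 (0.017), Atrx (0.0225) and Ncor1 (0.036) gained.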

How the data were processed

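Per the labels' protocols, polyadenylated RNA of the sorted cells was made into TruSeq mRNA libraries with a kit that does not mark strand. The estimated counts of the 6 libraries were deposited as a single unscaled table. The submitters' processing notes name mm10 as the build and, as tools, HTSeq, Cufflinks, Cuffdiff 2.1.1, Bowtie2 2.2.1, TopHat2 2.0.13 and FastQC. Neither the annotation release nor how these tools were combined is stated in the sources used here. A share of 1.31 to 1.61% of a library's values was not whole, so values were rounded before testing. Totals were 19728205 to 35093265 counts, and 3 counts, the limit that a count of 0 allows, came to 0.0855 to 0.152 CPM (counting error only). Replicates of a group did not repeat each other within sampling noise (chi-square divided by its degrees of freedom was 50.3 to 144), and each counted as 1 sample.

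Genes were kept with filterByExpr (minimum count 10, minimum total 15), libraries scaled by TMM and groups compared with edgeR 4.0.16 in R 4.3.3 (the quasi-likelihood F-test, two-sided, fitted on group alone with 4 residual degrees of freedom). Adjusted p are Benjamini-Hochberg values over all 12950 genes tested. Levels are CPM scaled by TMM; CPM per kb divides the mean over the 6 libraries by the longest coding transcript in GENCODE. Ratios of relatives add 0.5 CPM, and their p come from exact two-sided permutation tests over the 6 libraries for 15 pairs; the smallest Benjamini-Hochberg value over the 15 is 0.3. The fit was tested on simulated counts before use. Alternatives were other scalings, filters, DESeq2 1.42.0, limma 3.58.1 voom, robust dispersions, a replicate block, equal depth, a length and GC correction (mgcv 1.9.3) and leaving out each library.

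The 58 genes, their role groups and all lists were chosen with earlier results of these data known, so counts over them are descriptions. Genes named are all that passed, 17 named beforehand, the highest and lowest per kb of each role, pairs whose fold changes differ by at least 0.5, and up to 4 related genes per role that passed; some of the last are not reported here. Of 142 related genes 138 were found, some under older symbols (Kmt2d as Mll2, Kat6a as Myst3), and 134 tested. Exons of 29 of the 58 genes share bases with another annotated gene, and reads from the shared bases cannot be told apart. The shared part ran from 0.00781% of a gene's exon bases (Ncor1 with Ttc19) to 22.4% (Hdac4 with Gm26720). Bicral, Srcap, Kmt2b and Setd1b were not analysed here.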

Additional observations from a re-analysis of the deposited data

How the results depend on the processing

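Of the 13 calls, 4 passed in every one of the 17 alternatives (Ankrd11, Hdac5, Chd7, Chd3), and none of the 13 changed sign. The number of the 58 genes that fell was 11 to 16 over the other scalings, filters and tools, 14 with the length and GC correction and 13 at equal depth; it was 4 to 12 with 1 library left out. The count over all genes went from 1058 to 1698 with DESeq2 and to between 334 and 1033 with 1 library left out, and the related genes called from 20 to between 4 and 17 with 1 library left out. The median log2 fold change of the 58 genes, -0.40, was -0.32 with library totals alone. The labels do not say whether same-numbered libraries share a day or an animal. Such libraries had correlations of -0.03, 0.03 and -0.05 between their deviations from the group means, and 2 of the 6 libraries correlated best with the library of their own number. With 3 libraries a group this check cannot exclude a shared day. With the replicate block 585 genes were called in all, 7 of the 58 and 7 related genes. In that edgeR fit Smarca4 (0.0586), Baz1b (0.0643), Brd9 (0.0749), Ino80 (0.0799), Brd8 (0.0848) and Brd2 (0.0976) lost their calls (adjusted p), as did the 4 related genes that rose, from Cecr2 (0.0895) to Rbbp4 (0.102). Fold changes near 0 changed sign: Smarcc1 to 0.03 (upper-quartile) and 0.04 (totals alone), Ezh2 to 0.00, 0.01 and 0.01 (these and equal depth), Asxl1 to -0.05 (voom), -0.04 (replicate block) and 0.00 (length and GC), and with the length and GC correction Smarcd1 to 0.08, Chd6 to -0.11, Smarca5 to -0.16, Hdac2 to -0.02 and Nsd1 to -0.09. The cause of these changes was not tested. With 1 library left out the ranges of those that changed sign were Smarcc1 -0.14 to 0.04, Chd6 -0.17 to 0.25, Smarca5 -0.05 to 0.08, Brd3 -0.22 to 0.11, Hdac1 -0.28 to 0.05, Ezh2 -0.21 to 0.22, Asxl1 -0.21 to 0.27 and Nsd1 -0.05 to 0.09. Depth limits little here: every gene of the 58 was above 13 CPM in every library.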

Other observations

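Within a group the chromatin genes were mostly steady, and in the 3 described first here a single library departed from the others of its group. Hdac7 was at 33.1, 35.2 and 57.4 CPM in wtIDH1 libraries 1 to 3, a coefficient of variation of 32.1%, the highest of the 58 genes in that group. Asxl1, whose truncation is common in clonal blood disorders, was at 61.5, 131 and 113 CPM in mIDH1 libraries 1 to 3 (35.5%), the highest in mIDH1. Smarcb1, the core SWI/SNF subunit lost in rhabdoid tumours, was at 46.3 and 48.4 CPM in mIDH1 libraries 1 and 2 and at 27.9 CPM in library 3, while wtIDH1 ranged from 46.2 to 59.6 CPM. At the other end, Arid4a (0.313%) and Bptf (0.557%) hardly varied among the wtIDH1 libraries. In 22 of the 58 genes the mIDH1 libraries had the smaller coefficient of variation. With 3 libraries a group, no test of these departures was made.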
